A study of Mus musculus with 12 samples.

Results

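Expression of 9 autophagy and mitophagy genes, Sqstm1, Map1lc3a, Map1lc3b, Gabarapl1, Ulk1, Bnip3, Bnip3l, Tfeb and Tbc1d15, was examined in cardiac tissues of mice treated with cisplatin (CDDP). The genes were taken by symbol from the 55885 genes listed, each symbol matched 1 gene, and all 9 belonged to the 13815 genes that were tested, those reaching a TPM of 1 in 3 hearts or more. TPM is a measure of transcript abundance scaled by gene length and to a common total, so that levels of different genes can be compared. The 12 hearts came from male mice of strain C57BL/6 in the labels and C57BL/6J in the methods, 8 weeks old at the start, 3 in each of 4 groups. Wild-type mice without cisplatin formed the Saline group and wild-type mice injected intraperitoneally with cisplatin at 6 mg/kg on days 1, 8 and 15 formed the CDDP group. Mice of the genotype Tmem173-/-, which carry a whole-body disruption of the gene for STING, formed the STING-/- group without cisplatin and the STING-/-+CDDP group with the same 3 injections. The tissue was collected a week after the last injection. The sample labels call the hearts without cisplatin untreated, whereas the methods describe a saline group. Wild-type and STING-/- mice were obtained from different suppliers, so genotype and source cannot be told apart.

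Autophagy encloses cytoplasm in a double membrane, the autophagosome, and delivers it to lysosomes for degradation. The ULK1 kinase starts the process, ATG8 proteins of the LC3 and GABARAP subfamilies are attached to the growing membrane, and cargo receptors such as SQSTM1 hold ubiquitinated cargo against them. In mitophagy the cargo is a mitochondrion, marked either by receptors in its outer membrane such as BNIP3 and BNIP3L or by the kinase PINK1 with ubiquitin. Cardiomyocytes are rich in mitochondria and depend on both processes, and lysosomal genes are under the control of the transcription factor TFEB. Levels of mRNA, as measured here, give the supply of these transcripts and not the rate at which autophagosomes form or are degraded.

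The libraries held between 19680 and 21024 genes above 0, and mitochondrially encoded genes took 18.8 to 27.6% of the TPM. The summed TPM of cardiomyocyte markers was 22201 to 34932 in 11 hearts and 15762 in CDDP 1, the heart that also stood apart in neutrophil markers, with a sum of 1106 against at most 84.1 elsewhere. Red blood cell markers summed to 4146 to 9317 with Saline, 42.0 to 1271 with CDDP, 264 to 1465 in STING-/- mice without cisplatin and 81.9 to 311 with it, and all 5 of these markers fell in the CDDP hearts. Macrophage markers, of which 5 of 6 fell with CDDP, summed to 405 to 514 with Saline and 116 to 236 with CDDP, and for STING-/- mice to 365 to 552 without and 159 to 309 with cisplatin. Atrial markers reached 38939 in Saline 2 and ranged from 310.2 to 14621 in the other hearts. Of the 6 cardiomyocyte markers 1 rose and 1 fell with CDDP. Of 5 endothelial markers 4 fell, and the list summed to 485 to 635 with Saline and 339.9 to 419.7 with CDDP. Of 6 fibroblast markers 3 fell, but their summed TPM overlapped, at 765 to 1810.2 with Saline and 970.1 to 2064 with CDDP. Dcn, which made up most of that sum, measured 516, 1366 and 627 TPM with Saline and 920, 1115 and 1967 TPM with CDDP. Of the 4 tested fat cell markers 1, Cidea, rose with CDDP, and the 5 markers of the list summed to 22.0 to 97.0 with Saline and 42.3 to 153 with CDDP. None of the markers was at 0 in every heart. In bulk tissue, fewer cells of a type and less RNA per cell cannot be told apart, and the part of these differences in the results was not tested except where a value is given beside a result. The TPM of Sting1 itself ranged from 5.62 to 22.1 over the wild-type hearts and from 2.87 to 5.96 over those of the mutants, so its transcripts were not absent there. The number of reads behind a TPM is unknown.

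Of the 9 genes, 7 had a promoter in the RefSeq table of GRCm38.p6, which holds the 250 bases before and 50 bases after each start site. Map1lc3a and Bnip3l had no entry. Both strands were searched for CACGTG, the core of the site bound by TFEB and related factors, for TGANTCA, the AP-1 site, and for ACGTG, the core of the HIF-1 site, which is contained in CACGTG. The first of these was found in the promoters of Bnip3 and Tbc1d15, and these held ACGTG only inside it. None of the 3 motifs was found in the promoters of Sqstm1, Map1lc3b, Gabarapl1, Ulk1 and Tfeb. Of all 32851 promoters in the table, 7.2% held CACGTG, 7.8% TGANTCA and 19.6% ACGTG. The sequences of Bnip3 and Sqstm1, which had the 2 largest changes with CDDP among the 9 genes, are shown as the 250 bases before the start site, at chr7:138909507-138909756 and chr11:50210821-50211070, both on the minus strand and written 5′ to 3′. For Tbc1d15 the 30 bases at chr10:115251444-115251473, also on the minus strand, are shown because its motif lies behind the start site. Capitals mark CACGTG, which begins 108 bases before the start of Bnip3 and 37 bases after that of Tbc1d15. These are matches of letters and not measured binding sites.
Bnip3: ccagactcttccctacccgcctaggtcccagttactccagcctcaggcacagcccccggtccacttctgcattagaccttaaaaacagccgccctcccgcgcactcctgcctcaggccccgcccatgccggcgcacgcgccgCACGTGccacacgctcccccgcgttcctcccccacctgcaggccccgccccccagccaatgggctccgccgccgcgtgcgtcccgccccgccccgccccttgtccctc
Sqstm1: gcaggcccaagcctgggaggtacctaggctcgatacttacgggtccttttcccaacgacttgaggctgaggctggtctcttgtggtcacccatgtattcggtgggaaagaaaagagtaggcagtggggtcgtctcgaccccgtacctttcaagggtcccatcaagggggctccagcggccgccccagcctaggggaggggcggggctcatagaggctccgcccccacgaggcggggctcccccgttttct
Tbc1d15: gttgtgagtccgagagcCACGTGaggttgt

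The first comparison asked how cisplatin changed these transcripts in wild-type hearts. Sqstm1, Map1lc3b, Gabarapl1, Ulk1, Bnip3 and Tbc1d15 rose with CDDP, by 1.79-fold for Ulk1 to 3.80-fold for Bnip3, whereas Map1lc3a, Bnip3l and Tfeb did not pass the test. Folds are ratios of geometric means of TPM + 1, and the test was limma on log2(TPM + 1), fitted to the 12 hearts at once and two-sided, and p was adjusted over the 13815 genes by the method of Benjamini and Hochberg, with a threshold of 0.05. Thus 6 of 9 genes were higher, where 8.52% of all tested genes were higher and 18.9% passed in either direction. The CDDP and Saline hearts did not overlap for 5 of the 9, and for 32.0% of all tested genes. The median log2 fold change over the 9 genes was 1.23, beside -0.00 over all tested genes. The 9 genes were chosen with earlier results of these data known. Their shares and median therefore cannot show whether they changed more than other genes. With the red blood cell markers as a covariate, only the call of Map1lc3b was left (1.57 on the log2 scale). Among the 5 lost calls, the log2 fold changes under the covariate were 1.67 for Bnip3, 1.33 for Sqstm1, 1.12 for Tbc1d15 and 1.06 for Ulk1, with adjusted p = 0.0526 to 0.137 by limma, and 0.16 for Gabarapl1 (adjusted p = 0.899 by limma). The standard errors of the 5 were 0.31 to 0.64, against 0.16 to 0.38 without it. That covariate itself separated the Saline from the CDDP hearts, and it moved the median of all tested genes to -0.37 and the share that passed to 6.62%.

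**Figure D1:**
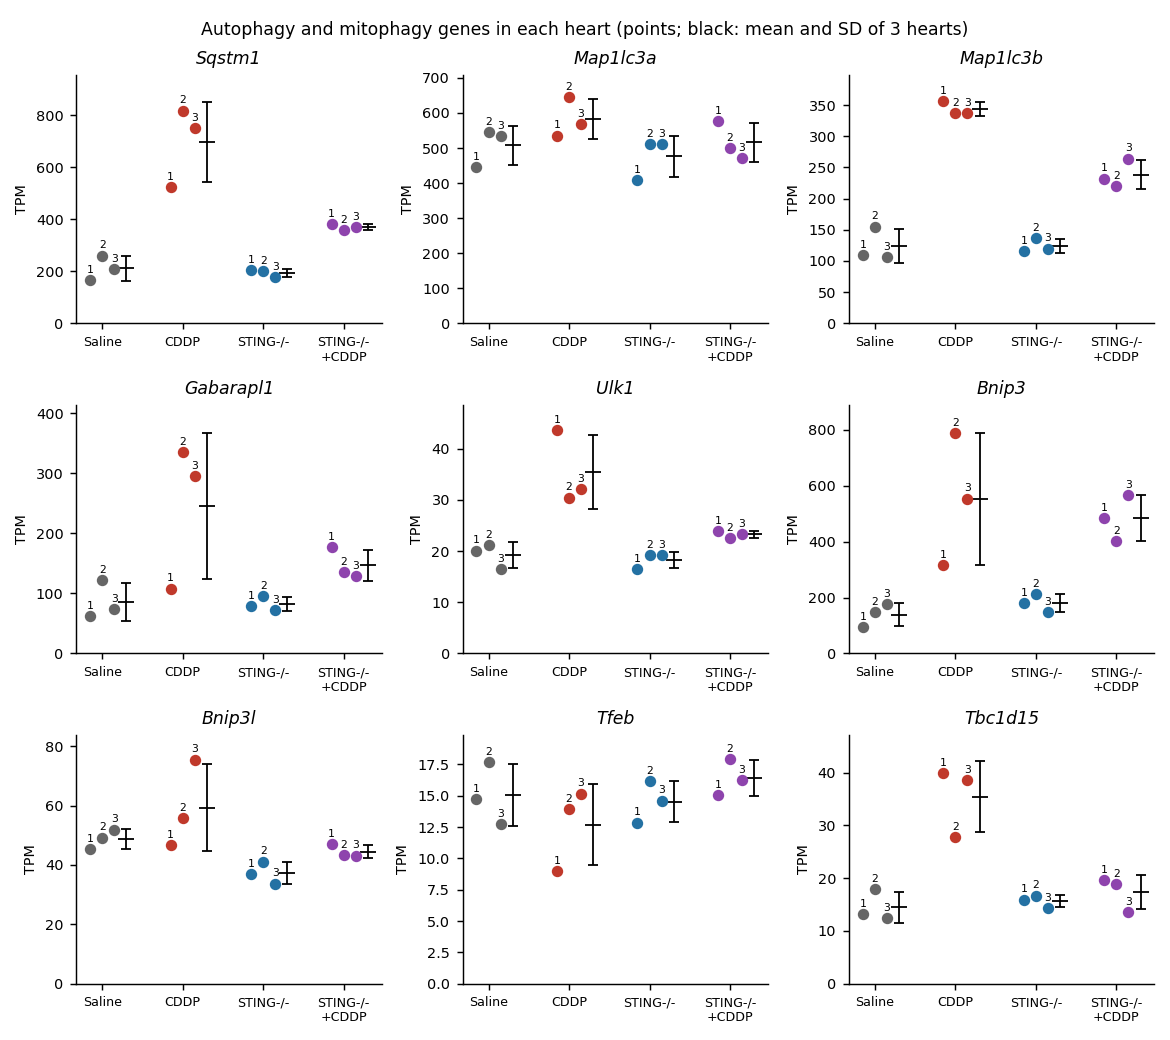
TPM of the 9 genes in each heart (points, numbered 1 to 3 within each group), with the mean and SD of the 3 hearts of a group in black and a linear axis from 0 in each panel. Sqstm1 lies between 525 and 818 in the CDDP hearts and at 359 to 380.1 in the STING-/-+CDDP hearts, and Tbc1d15 reaches 19.6 at most outside the CDDP group.

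Sqstm1 encodes the cargo receptor that binds ubiquitinated proteins and LC3 at once and is itself degraded by autophagy. In the order of the heart numbers, its TPM with Saline was 166, 261 and 209, against 525, 818 and 752 with CDDP. Among STING-/- mice it was 204, 201 and 176 without cisplatin, against 380.1, 359 and 371 with it. Every heart with cisplatin was above every heart without it, and every CDDP heart was above every STING-/-+CDDP heart. The rise with CDDP was 1.72 on the log2 scale (standard error 0.19, adjusted p = 6.01e-04 by limma), from 212 ± 47.5 to 698 ± 154 TPM (SD, n = 3). In STING-/- mice the log2 fold change with cisplatin was 0.93 (95% interval 0.53 to 1.34, adjusted p = 0.0415 by limma). Under cisplatin, Sqstm1 was lower without STING than with it (-0.89 on the log2 scale, standard error 0.19, adjusted p = 0.0462 by limma). Mrnip overlaps Sqstm1 (chromosome 11, 50199366 to 50210827, minus strand, GRCm38) on the opposite strand, at a TPM of at most 1.99.

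The ATG8 family was unequal in its response. Map1lc3a and Map1lc3b encode LC3 proteins, which are lipidated and mark the autophagosome membrane, and Gabarapl1 encodes a member of the GABARAP subfamily. For Map1lc3b, wild-type hearts measured 109, 155 and 106 TPM with Saline and 356, 337 and 337 TPM with CDDP. Hearts lacking STING measured 115, 137 and 119.7 TPM without cisplatin and 232, 219 and 264 TPM with it. As with Sqstm1, the hearts with cisplatin did not overlap those without, and the STING-/-+CDDP hearts lay below the CDDP hearts. With CDDP, Map1lc3b rose by 1.49 on the log2 scale (standard error 0.15, adjusted p = 4.07e-04 by limma). Its log2 fold change with cisplatin in STING-/- mice was 0.94 (95% interval 0.61 to 1.27, adjusted p = 0.0217 by limma), and it was the only gene of the 9 called in both genotypes under each alternative that kept all hearts and set no minimum fold change. Under cisplatin, the absence of STING came with -0.53 on the log2 scale, which did not pass (adjusted p = 0.0986 by limma). The Map1lc3b locus (chromosome 8, 121590361 to 121598760, plus strand) overlaps Gm20388 on the same strand. On the opposite strand it overlaps Zcchc14, which was at 6.27 to 17.1 TPM over the hearts. Whether the counting used strand is not given in the sources used here.

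Map1lc3a was the most abundant of the 9 genes with Saline. Saline values were 444, 544 and 534 TPM and CDDP values 535, 645 and 568 TPM. The corresponding values of STING-/- mice were 409, 511 and 511 TPM and, with CDDP, 577, 499.6 and 471 TPM. The hearts of the groups overlapped in each comparison. With CDDP its log2 fold change was 0.20 (95% interval -0.10 to 0.50, adjusted p = 0.338 by limma), an interval whose upper end lies below the lower end of that of Map1lc3b, 1.16.

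The share of Map1lc3b in the LC3 transcripts, its TPM as a percent of Map1lc3a plus Map1lc3b, was computed after the values had been seen. With Saline it came to 19.7, 22.1 and 16.6%, and with CDDP to 40.0, 34.3 and 37.3%. Hearts lacking STING held 22.0, 21.2 and 19.0% without cisplatin and 28.7, 30.5 and 35.9% with it. The mean with CDDP was 37.2 ± 2.85% against 19.5 ± 2.76% with Saline, and in STING-/- mice 31.7 ± 3.75% against 20.7 ± 1.55% (SD, n = 3, exact permutation test p = 0.10 in each, the smallest that 3 hearts against 3 allow). The CDDP and STING-/-+CDDP hearts overlapped (exact permutation test p = 0.20). Over the 5 ATG8 genes together the summed TPM was 978 ± 131 in the Saline, 1549.7 ± 191 in the CDDP, 926 ± 88.2 in the STING-/- and 1222 ± 72.1 in the STING-/-+CDDP hearts (SD, n = 3).

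**Figure D2:**
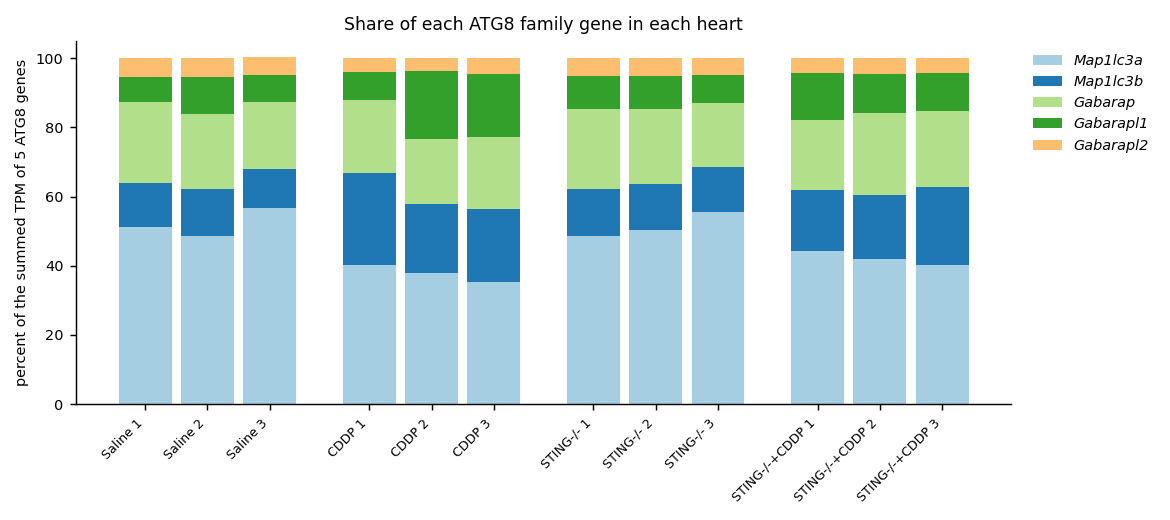
Percent of the summed TPM of the 5 ATG8 genes held by each gene, 1 bar for each heart. Map1lc3b takes 11.3 to 13.8% in the 6 hearts without cisplatin and 17.8 to 26.7% in the 6 hearts with it, and Gabarapl1 takes 8.10% in CDDP 1 against 18.3 and 19.7% in the other CDDP hearts.

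Relative to its mean, Gabarapl1 varied more between the CDDP hearts than any other of the 9. Wild-type hearts measured 61.8, 123 and 73.5 TPM with Saline and 108, 336 and 295 TPM with CDDP. Hearts lacking STING measured 79.5, 95.9 and 72.6 TPM without cisplatin and 177, 135 and 128 TPM with it. CDDP 1, the heart with the high neutrophil markers, lay below Saline 2, so the groups overlapped. The log2 fold change with CDDP was 1.41 (standard error 0.38, adjusted p = 0.024 by limma). This call was lost without Saline 1 (adjusted p = 0.0944 by limma), Saline 3 (0.0709), CDDP 2 (0.0735) or CDDP 3 (0.0779). It was also lost without a filter on low values (adjusted p = 0.063 by limma) and with only the compared groups (0.105). Without CDDP 1 the log2 fold change was 1.92. With the red blood cell covariate it was 0.16 (adjusted p = 0.899 by limma). Without STING the hearts did not overlap, with a log2 fold change of 0.82 (95% interval -0.01 to 1.64, adjusted p = 0.371 by limma). Gm44243, on the same strand within this locus, was at a TPM of at most 3.61.

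Ulk1 encodes the kinase that starts autophagosome formation under the control of mTORC1 and AMPK. Its TPM with Saline was 20.1, 21.2 and 16.4, against 43.6, 30.4 and 32.1 with CDDP. Among STING-/- mice it was 16.5, 19.2 and 19.1 without cisplatin, against 23.9, 22.5 and 23.3 with it. Neither pair of groups overlapped. The rise with CDDP was 0.84 on the log2 scale (standard error 0.16, adjusted p = 0.0054 by limma), while the log2 fold change of 0.33 without STING (95% interval -0.02 to 0.68) did not pass (adjusted p = 0.392 by limma). The call with CDDP was lost with only the compared groups (adjusted p = 0.0552 by limma) and with the red blood cell covariate (0.0665). All STING-/-+CDDP hearts lay below all CDDP hearts, with a log2 fold change of -0.57 that missed the threshold (adjusted p = 0.0918 by limma).

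Bnip3 and Bnip3l encode related receptors of the outer mitochondrial membrane that bind LC3 proteins directly, and both are known as hypoxia-responsive genes. For Bnip3, Saline values were 95.4, 147 and 176 TPM and CDDP values 316, 789 and 554 TPM. The corresponding values of STING-/- mice were 181, 213 and 149 TPM and, with CDDP, 485, 402 and 567 TPM. All hearts with cisplatin were above all hearts without, and those of the 2 genotypes under cisplatin overlapped. The rise with CDDP was 1.93 on the log2 scale (standard error 0.31, adjusted p = 0.00248 by limma). In STING-/- mice the log2 fold change was 1.42 (95% interval 0.74 to 2.10), which missed the threshold (adjusted p = 0.0614 by limma) and passed under 4 of the 13 alternatives other than leaving out a heart. Under cisplatin it differed between the genotypes by -0.11 on the log2 scale (95% interval -0.79 to 0.57, adjusted p = 0.891 by limma).

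Bnip3l was lower than Bnip3 in each heart. Wild-type hearts measured 45.3, 49.2 and 51.9 TPM with Saline and 46.6, 55.9 and 75.5 TPM with CDDP. Hearts lacking STING measured 37.0, 41.1 and 33.7 TPM without cisplatin and 46.9, 43.4 and 43.2 TPM with it. The Saline and CDDP hearts overlapped, while the STING-/-+CDDP hearts lay above the STING-/- hearts. The log2 fold change was 0.25 with cisplatin in each genotype (95% intervals -0.11 to 0.61 and -0.11 to 0.62). All STING-/- hearts lay below all Saline hearts (log2 fold change -0.38, unadjusted p = 0.0399 and adjusted p = 1 by limma), the only gene of the 9 for which these groups did not overlap. Such a lack of overlap was seen for 7.64% of all tested genes. Bnip3l is also the receptor through which maturing red blood cells lose their mitochondria, and red blood cell markers were highest in the Saline hearts. With these markers as a covariate, the log2 fold change of Bnip3l was -0.61 between the STING-/- and Saline hearts and -0.12 with CDDP. The part of red blood cells in its level was not tested. The ratio of Bnip3 to Bnip3l, also chosen after the values were seen, came to 2.10, 2.98 and 3.39 with Saline and to 6.78, 14.1 and 7.34 with CDDP. Hearts lacking STING had ratios of 4.89, 5.18 and 4.43 without cisplatin and 10.4, 9.27 and 13.2 with it.

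Tbc1d15 encodes a GTPase-activating protein for RAB7 that acts at mitochondria and restrains the growth of autophagosomes during mitophagy. Its TPM with Saline was 13.2, 17.9 and 12.4, against 39.9, 27.7 and 38.6 with CDDP. Among STING-/- mice it was 15.9, 16.7 and 14.3 without cisplatin, against 19.6, 18.8 and 13.6 with it. Only the CDDP hearts stood apart, above all 9 others. The rise with CDDP was 1.23 on the log2 scale (standard error 0.20, adjusted p = 0.00235 by limma), a 2.35-fold change. In STING-/- mice the log2 fold change was 0.13 (95% interval -0.30 to 0.55, adjusted p = 0.823 by limma). Tbc1d15 was lower in the STING-/-+CDDP than in the CDDP hearts, with a ratio of 0.504 (-0.99 on the log2 scale, standard error 0.20, adjusted p = 0.0421 by limma).

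Tfeb encodes the transcription factor of lysosomal genes. Saline values were 14.8, 17.7 and 12.7 TPM and CDDP values 9.01, 13.9 and 15.2 TPM. The corresponding values of STING-/- mice were 12.8, 16.2 and 14.6 TPM and, with CDDP, 15.1, 17.9 and 16.2 TPM. The groups overlapped in each comparison, and the log2 fold change with CDDP was -0.25 (95% interval -0.67 to 0.18, adjusted p = 0.406 by limma). TFEB is controlled chiefly by its movement into the nucleus, which mRNA does not show.

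By level, the order in the Saline hearts was Map1lc3a, Sqstm1, Bnip3, Map1lc3b, Gabarapl1, Bnip3l, Ulk1, Tfeb and Tbc1d15. Neighbours from Sqstm1 to Gabarapl1 and from Ulk1 to Tbc1d15 overlapped between hearts. In the CDDP hearts Sqstm1 came first with 698 ± 154 TPM, followed by Map1lc3a with 583 ± 56.6 and Bnip3 with 553 ± 236 (SD, n = 3), and these 3 overlapped. Tbc1d15 moved from the last place to share that of Ulk1, both with a mean of 35.4 TPM, above Tfeb with 12.7 TPM. The STING-/- hearts had the order of the Saline hearts apart from Tbc1d15 and Tfeb, which overlapped. In the STING-/-+CDDP hearts Map1lc3a and Bnip3 led and overlapped, and Sqstm1 followed below Bnip3 without overlap.

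**Figure D3:**
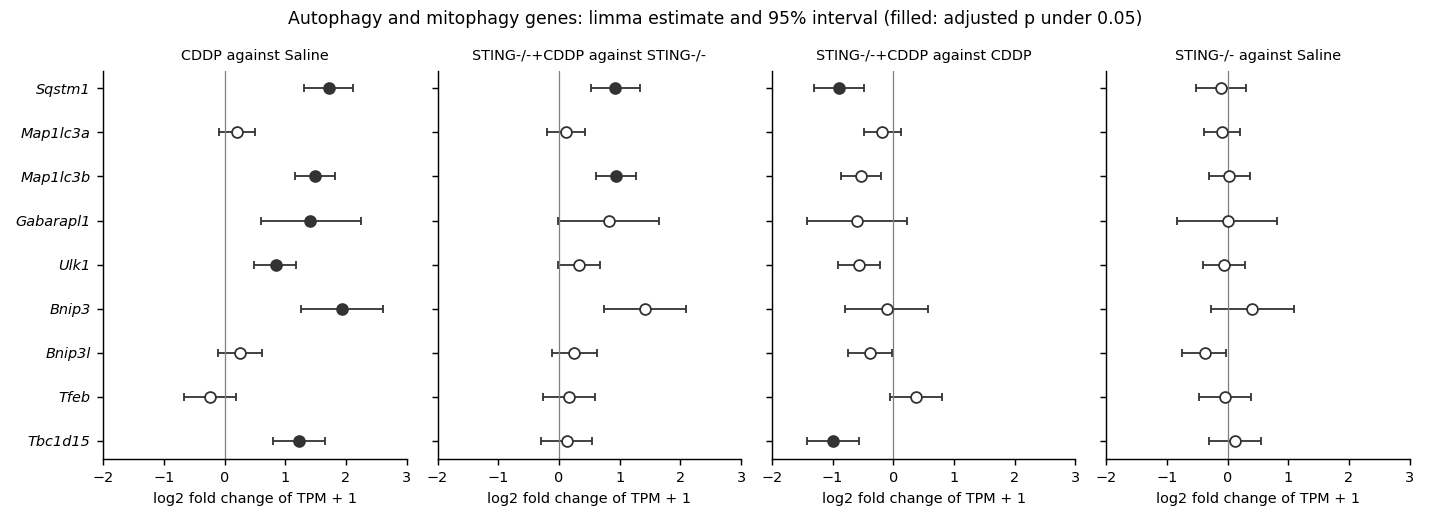
Log2 fold change of TPM + 1 of each of the 9 genes in 4 comparisons, as the limma estimate with its 95% interval on a common axis, filled where the adjusted p passed 0.05. With CDDP 6 genes are filled to the right of 0, in STING-/- mice Sqstm1 and Map1lc3b, and between the STING-/-+CDDP and CDDP hearts Sqstm1 and Tbc1d15 are filled to the left of 0.

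The second comparison, of the STING-/-+CDDP with the STING-/- hearts, shares no heart with the first. The log2 fold changes with cisplatin had the same sign in both genotypes for 8 of the 9 genes, all but Tfeb. The smallest of these in STING-/- mice were 0.12 for Map1lc3a, 0.13 for Tbc1d15 and 0.25 for Bnip3l, which did not pass. The share of same signs over all tested genes is not given here. In STING-/- mice 2 of the 9 genes rose, Sqstm1 and Map1lc3b, where 0.253% of all tested genes rose and 0.934% passed in either direction. Hearts did not overlap for 6 of the 9 and for 24.2% of all tested genes, and the median log2 fold change was 0.33 over the 9 genes and -0.11 over all. Because of how the 9 genes were chosen, these shares and medians cannot show that they changed more than others. The call of Sqstm1 was lost without Saline 3 (adjusted p = 0.0632 by limma), CDDP 3 (0.0566) or any heart of the 2 compared groups (0.106 to 0.154). The call of Map1lc3b was lost without any STING-/- heart (0.0504 to 0.0912) and without STING-/-+CDDP 1 (0.0696) or 3 (0.106).

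The third comparison asked how the absence of STING changed these transcripts under cisplatin, and it uses the CDDP hearts of the first comparison again. Between the STING-/-+CDDP and CDDP hearts, 2 of the 9 genes were lower, Sqstm1 and Tbc1d15, where 0.854% of all tested genes were lower and 1.22% passed in either direction. The log2 fold change was above 0 for Tfeb only, at 0.37 (adjusted p = 0.313 by limma), and the median over the 9 genes was -0.53 beside -0.09 over all tested genes. Groups did not overlap for 4 of the 9, Sqstm1, Map1lc3b, Ulk1 and Tbc1d15, and for 22.7% of all tested genes. Here too the 9 genes were chosen with earlier results known, so these shares cannot show that they changed more than others. The call of Sqstm1 was kept without Saline 1, Saline 2 or CDDP 1 and lost without any 1 of the 9 other hearts (adjusted p = 0.0626 to 0.157 by limma, log2 fold change -0.76 to -0.91). That of Tbc1d15 was kept without Saline 2, Saline 3 or CDDP 2 and lost without any 1 of the 9 others (adjusted p = 0.0525 to 0.15 by limma, log2 fold change -0.83 to -1.08).

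Without cisplatin, the STING-/- and Saline hearts differed in 0 of the 9 genes by limma, with log2 fold changes from -0.38 for Bnip3l to 0.40 for Bnip3, and Bnip3l had an unadjusted p under 0.05. Of all tested genes 0.0724% passed, and the groups did not overlap for 7.64%. Whether the change with cisplatin itself differed between the genotypes was tested as the interaction. It passed for 0 of the 9 genes after adjustment, as for 0.00724% of all tested genes. Before adjustment, 4 of the 9 were under 0.05, as were 11.7% of all tested genes, namely Tbc1d15 (-1.11, adjusted p = 0.308 by limma), Sqstm1 (-0.78, adjusted p = 0.348 by limma), Map1lc3b (-0.55, adjusted p = 0.378 by limma) and Ulk1 (-0.51, adjusted p = 0.415 by limma). The calls present in one genotype and missing in the other are therefore not shown to differ. Given how the 9 genes were chosen, 4 of 9 beside 11.7% cannot show an excess either.

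The wider machinery was described with 12 lists of 119 genes, which include the 9 and were all tested. Of the other 110 genes, 10 rose and 4 fell with CDDP, 12.7% in all, against 18.9% of all tested genes, and their median log2 fold change was 0.14. None of the 110 passed in either comparison of the STING-/-+CDDP hearts, where the median was -0.01 against STING-/- and -0.10 against CDDP. At an unadjusted p under 0.05 there were 33 with CDDP, 12 in STING-/- mice and 18 between the STING-/-+CDDP and CDDP hearts, beside 33.9, 13.5 and 19.8% of all tested genes, and each of these counts is a smaller share of the 110. Under scaling by the median of ratios 32 of the 110 passed with CDDP, and 3, Atg14, Tbk1 and Rptor, between the STING-/-+CDDP and CDDP hearts, which is 29.1 and 2.73%, against 27.7 and 4.84% of all tested genes under that scaling.

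Upstream of Ulk1, the list of mTORC1 and its inhibitors had 3 of 15 genes called with CDDP, 20.0% beside 18.9% of all tested genes. Sesn2, which encodes a stress-induced inhibitor of mTORC1, rose from 1.93 to 6.04 TPM in the mean (log2 fold change 1.25, adjusted p = 0.00658 by limma), and Rptor, which encodes the mTORC1 subunit that binds its substrates, fell from 8.46 to 3.86 TPM (-0.97, adjusted p = 0.00459 by limma). Depdc5, a subunit of the GATOR1 complex that restrains mTORC1, was the third called gene (-0.88, adjusted p = 0.0393 by limma) and is named after its values were seen. For Sesn2 the log2 fold change with cisplatin in STING-/- mice was 1.12 (adjusted p = 0.064 by limma). Of AMPK and FoxO genes only Prkag1, an AMPK subunit, was called of 9 (0.40, adjusted p = 0.0477 by limma). In the ULK1 kinase complex, Rb1cc1, the scaffold subunit, rose beside Ulk1 (0.68, adjusted p = 0.03 by limma), 2 of 5 genes in all, where 18.9% of all tested genes passed. Ulk1 belongs to the 9 genes chosen with earlier results of these data known. In the class III PI3 kinase complex, which makes the lipid that marks the nascent membrane, Atg14 was called of 8 genes (0.69, adjusted p = 0.0303 by limma). Its log2 fold change between the STING-/-+CDDP and CDDP hearts was -0.62 (adjusted p = 0.124 by limma).

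None of the 9 genes for membrane supply and lipid transfer passed, with Wdr45 at 0.51 (adjusted p = 0.077 by limma) and Wipi1 at 0.44 (0.0795). Of the 11 enzymes that process and attach ATG8 proteins, Atg4d, a protease of ATG8 proteins, was the called gene and fell (-0.80, adjusted p = 0.00411 by limma), and 8 of the 11 had log2 fold changes below 0. Within the ATG8 family, Gabarap rose from 209 ± 29.2 to 313 ± 28.0 TPM (SD, n = 3, log2 fold change 0.59, adjusted p = 0.014 by limma), and Gabarapl2 had 0.30 (adjusted p = 0.174 by limma). In all 3 of 5 genes were called, where 18.9% of all tested genes passed. Of these, Map1lc3b and Gabarapl1 belong to the 9 genes chosen with earlier results of these data known. Among 11 cargo receptors, Tax1bp1, another receptor for ubiquitinated cargo, rose beside Sqstm1 (0.71, adjusted p = 0.0146 by limma). These 2 of 11 are 18.2%, beside 18.9% of all tested genes, and Sqstm1 also belongs to the 9 chosen genes.

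Of 14 mitophagy genes 5 were called with CDDP, 4 higher and 1 lower, which is 35.7% beside 18.9% of all tested genes. The list includes 3 genes chosen with earlier results of these data known, Bnip3, Bnip3l and Tbc1d15. Of these, Bnip3 and Tbc1d15 are 2 of the 5 called genes and are described above. The share of 35.7% therefore cannot show whether mitophagy genes were called more often than others. Besides Bnip3 and Tbc1d15, Pink1 measured 235, 259 and 265 TPM with Saline and 367, 512 and 401 TPM with CDDP (log2 fold change 0.74, adjusted p = 0.00476 by limma). In STING-/- mice Pink1 went from a mean of 253 to 387 TPM (log2 fold change 0.61, adjusted p = 0.0661 by limma). Tbk1, which encodes the kinase that phosphorylates cargo receptors and also acts downstream of STING, rose with CDDP (0.56, adjusted p = 0.0394 by limma). Its log2 fold change was -0.65 between the STING-/-+CDDP and CDDP hearts (adjusted p = 0.0806 by limma). Fundc1, a receptor of the outer mitochondrial membrane named here after its values were seen, fell (-0.46, adjusted p = 0.045 by limma).

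At the lysosomal end, Vamp8, a SNARE for the fusion of autophagosomes with lysosomes, was called of 11 genes (0.80, adjusted p = 0.00346 by limma). That is 9.09% of the list, beside 18.9% of all tested genes. None of the 4 lysosomal transcription factor genes passed, with Mitf at -0.16 (adjusted p = 0.79 by limma) and Zkscan3 at 0.09 (0.811). Of 17 genes for lysosomal membrane proteins and hydrolases, Ctsl, which encodes the protease cathepsin L, was called, 5.88% of the list. Its 129.9, 245 and 147 TPM with Saline stood against 439, 669 and 1079 TPM with CDDP, without overlap (log2 fold change 2.02, adjusted p = 0.00228 by limma), a larger change than that of any of the 118 other genes of the lists. The other 16 of these genes had log2 fold changes from -0.76 to 0.54 and did not pass. Ctsl was lower in the STING-/-+CDDP than in the CDDP hearts by -0.91 on the log2 scale, which did not pass (adjusted p = 0.152 by limma).

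**Figure D4:**
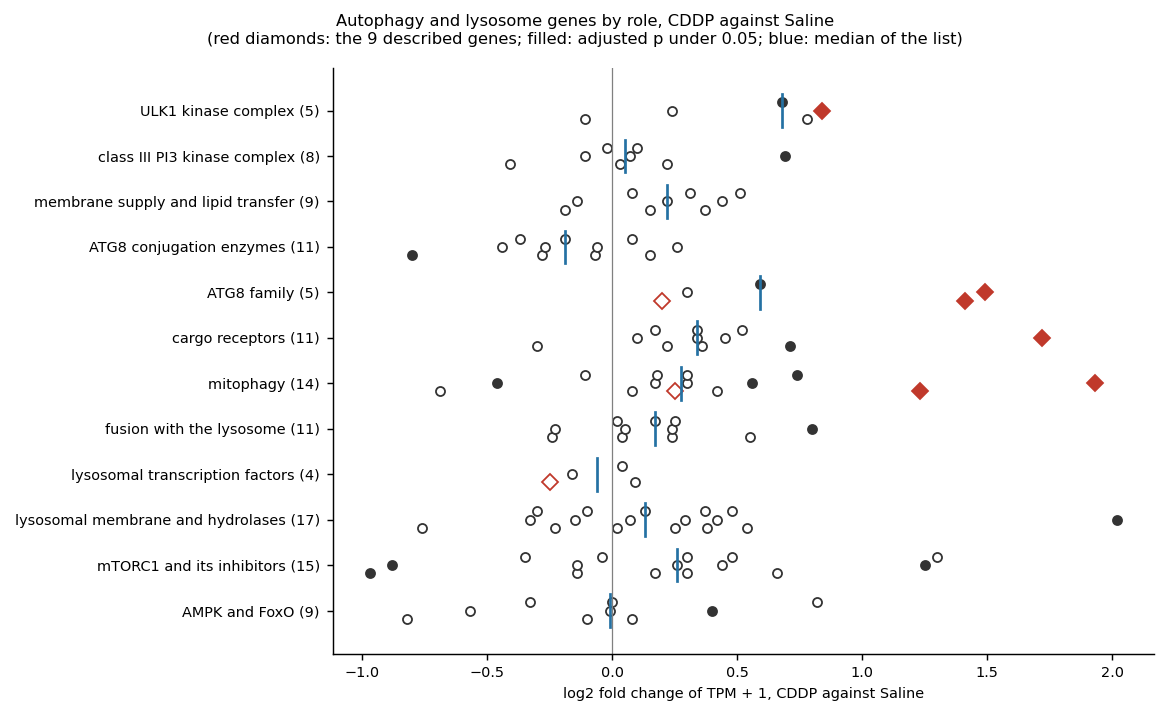
Log2 fold change of TPM + 1 between the CDDP and Saline hearts for the 119 genes of the 12 lists, ordered by role, with the size of each list in brackets. Diamonds are the 9 described genes, filled symbols passed an adjusted p of 0.05 and blue lines are list medians, which lie between -0.19 and 0.68, so that Ctsl, Bnip3 and Sqstm1 stand far to the right of their lists.

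Over the 12 hearts the levels of the called genes were correlated to unequal degrees. Pearson's r of log2(TPM + 1) was highest between Sqstm1 and Map1lc3b (0.95), Sqstm1 and Gabarapl1 (0.92) and Ulk1 and Tbc1d15 (0.91). It was lowest between Bnip3 and Tbc1d15 (0.56), Ulk1 and Bnip3 (0.60), Gabarapl1 and Ulk1 (0.61) and Gabarapl1 and Tbc1d15 (0.68). The other pairs of called genes had r from 0.82 to 0.90. The hearts fall into the groups compared above and share their libraries, so these values describe the same differences again and carry no p. The tested genes most like each called gene were found in the same way. For Sqstm1 these were Sugp1 (r = 0.987), Sod1 (0.980) and Nub1 (0.979), and for Map1lc3b they were Ddrgk1 (0.988), Cep89 (0.981) and Slc25a28 (0.980). Gabarapl1 was most like Selenbp1 (0.988), Ctnnal1 (0.979) and Sqor (0.979), and Ulk1 most like Junb (0.959), Ddi2 (0.959) and Ftsj3 (0.957). Bnip3 was most like Pex16 (0.965), Creg1 (0.963) and Gm19522 (0.960), and Tbc1d15 most like Eif1a (0.982), Acp1 (0.980) and Gna13 (0.979). An r of at least 0.9 was reached by 54 other tested genes for Bnip3 and by 330 for Tbc1d15, with 104 to 204 for the remaining 4.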

How the data were processed

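The RNA-seq values of 12 hearts were grouped by the treatment and genotype in the labels. Equal heart numbers in different groups denote different animals. The authors deposited gene-level TPM, rounded to 2 decimals, with sums of 999999 to 1000001 per heart. Per the submitters' processing notes, fastp, HISAT, RSEM and GRCm38.p5 were used, with no versions given. The 4 deposited columns of group means were not used, and TPM keeps no counts, so depth and detection limits are unknown.

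The 13815 genes reaching a TPM of 1 in 3 hearts or more were fitted as log2(TPM + 1) with limma 3.58.1 in R 4.3.3 (a coefficient for each group, eBayes with a trend, two-sided, Benjamini-Hochberg adjustment). The script was tested on simulated data. Single ratios were compared with exact permutation tests. Alternatives were other pseudocounts, filters, scalings, weights, covariates, a replicate block and each heart left out. The 9 genes, the lists and the tests were chosen with earlier results of these data known. Other genes named are, in each list, up to 2 with the smallest p in CDDP against Saline and in STING-/-+CDDP against CDDP, of which a selection is given, and the 3 most correlated with each called gene. Positions are from GENCODE M21 (GRCm38). Figures were drawn with matplotlib 3.10.9. No 2 hearts shared more than 1.01% of equal values over the tested genes.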

Additional observations from a re-analysis of the deposited data

How the results depend on the processing

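Of the counts of the 9 genes, that for CDDP against Saline kept 4 to 6 genes under the alternatives except with the red blood cell covariate, which left 1 (Map1lc3b). The log2 fold changes of 4 of the 5 genes lost there were 1.06 to 1.67, that of Gabarapl1 was 0.16, and the standard errors were 0.31 to 0.64 against 0.16 to 0.38. Gabarapl1 was lost without a filter, Gabarapl1 and Ulk1 with only the compared groups, and Ulk1 with a log2 fold change of at least 1. For STING-/-+CDDP against STING-/- the count of 2 became 1 without a filter, with eBayes without a trend and with the red blood cell covariate (Map1lc3b in each), and 0 with a log2 fold change of at least 1. For STING-/-+CDDP against CDDP the count of 2 became 1 with a pseudocount of 0.1 or eBayes without a trend (Tbc1d15) or arrayWeights (Sqstm1), and 0 without a filter, with only the compared groups or with a log2 fold change of at least 1. With each heart left out in turn the counts were 5 to 6 for CDDP against Saline, 0 to 3 for STING-/-+CDDP against STING-/- and 0 to 2 for STING-/-+CDDP against CDDP. The counts for STING-/- against Saline and for the interaction remained 0 under each alternative run. The causes were not tested.

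The replicate number as a block gave 6, 2 and 0 genes in the 3 comparisons (2175 instead of 2610 and 67 instead of 168 of all tested genes for CDDP against Saline and STING-/-+CDDP against CDDP). Residuals of same-numbered hearts had r from -0.333 to 0.261 over 18 pairs and those of other pairs from -0.312 to 0.431, and 1 of 12 hearts was most like a heart of its own number. Residuals of the 3 hearts of a group sum to 0, so the values of same-numbered and other pairs are not independent. The ranges overlapped, and whether same-numbered hearts share more than a number was not tested further.

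The scalings moved the median of all tested genes by about 0.1, from -0.09 to 0.00 (median of ratios) and 0.01 (quantile normalization) for STING-/-+CDDP against CDDP. The share of higher genes among all calls there was 29.8% as deposited, 41.8% with the median of ratios, 46.8% with quantile normalization and 39.4% without mitochondrially encoded genes, and for STING-/-+CDDP against STING-/- 27.1, 47.1, 55.9 and 35.8%. With the median of ratios and quantile normalization Bnip3 passed in STING-/- mice (adjusted p = 0.0485 and 0.0426 by limma). In the lists, CDDP against Saline, the median of ratios gave 2 genes instead of 1 for class III PI3 kinase, ATG8 conjugation, fusion and AMPK, 2 instead of 0 for membrane supply, 4 instead of 2 for cargo receptors, 5 instead of 1 for lysosomal membrane and hydrolases and 6 instead of 3 for mTORC1. Quantile normalization gave the same counts except 1 for membrane supply, 3 for cargo receptors and 4 for lysosomal membrane, and TPM without mitochondrially encoded genes gave 2 for ATG8 conjugation and AMPK. Between the STING-/-+CDDP and CDDP hearts both the median of ratios and quantile normalization gave 1 for class III PI3 kinase, 2 instead of 1 for mitophagy and 1 for mTORC1.

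None of the values that turned sign had passed the test. With the red blood cell covariate these were Map1lc3a (-0.05) and Bnip3l (-0.12) with CDDP, Tfeb (-0.12) with cisplatin in STING-/- mice, Ulk1 (0.07) in STING-/- against Saline, and the interaction of Map1lc3a (0.05) and Gabarapl1 (0.09). With the atrial covariate they were Map1lc3b (-0.12) and Tbc1d15 (-0.11) in STING-/- against Saline and the interaction of Map1lc3a (0.01). Quantile normalization turned Map1lc3a (0.01) and Bnip3 (0.10) in STING-/-+CDDP against CDDP, Gabarapl1 (0.02) in STING-/- against Saline and the interaction of Map1lc3a (0.05). The median of ratios turned Bnip3 (0.01) in STING-/-+CDDP against CDDP and the interaction of Map1lc3a (0.04). TPM without mitochondrially encoded genes turned Gabarapl1 (0.03), and arrayWeights Sqstm1 (0.05) and Gabarapl1 (0.19), in STING-/- against Saline, and arrayWeights the interaction of Bnip3l (-0.03). With a heart left out, the log2 fold change ranged for STING-/-+CDDP against CDDP from -0.46 to 0.20 for Bnip3, and for STING-/- against Saline from -0.27 to 0.05 for Sqstm1, -0.19 to 0.01 for Map1lc3a, -0.07 to 0.20 for Map1lc3b, -0.21 to 0.28 for Gabarapl1, -0.17 to 0.01 for Ulk1 and -0.15 to 0.07 for Tfeb. The interaction ranged from -0.19 to 0.01 for Map1lc3a and from -0.15 to 0.19 for Bnip3l.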
